A study of Mus musculus with 25 samples.

Results

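WNK1-deficient thymocytes taken 48 hr after an injection of anti-CD3ε were compared with unstimulated WNK1-deficient thymocytes (0 hr), in 3 libraries against 4. All 13922 genes with a mean normalized count of at least 10 over these 7 libraries were tested, of 24611 genes above 0 in them and 48795 in the whole table. Just inside this limit was *Dlk1* (mean 10.01), and just outside it *Klrd1* (9.98). The mice were *Wnk1* fl/fl, carried CD2-Cre and were *Rag1* KO. CD2-Cre is driven by the human CD2 promoter and acts in lymphoid cells, and the floxed allele loses exon 2 only, so that reads from other exons of *Wnk1* still count. Animals of 7 to 8 weeks received 150 µg of antibody into the peritoneum, or no injection at 0 hr, and Thy1.2+ CD44- thymocytes were sorted from each thymus. Controls were *Wnk1* fl/+ mice with the same transgene and the same *Rag1* deletion (3 libraries at each time), so that lack of RAG1 was common to all groups. All 25 libraries of the series belonged to one experiment.

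T cell precursors that have neither CD4 nor CD8 pass through DN3, the stage at which the TCRβ chain is rearranged and tested in the pre-TCR. Without RAG1 no chain is made and cells stop there, and an antibody to CD3ε gives them the signal that the pre-TCR would give. Cells that pass the checkpoint normally switch off the recombination programme, divide, and go on to express CD4, CD8 and the TCRα locus. WNK1 is a kinase that acts through the kinases OXSR1 and STK39 on ion cotransporters, and in T cells it is known for effects on migration and adhesion.

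The 7 libraries held 24.7 to 57.3 M reads and 18731 to 20337 genes above 0. Along the first principal component (63% of the variance) the 0 hr libraries lay between -57.6 and -46.7 and those of 48 hr at 90.1, 90.4 and 22.7. The last of these, 48 hr replicate 3, was the 48 hr library nearest to the 0 hr mean in 73.7% of the genes that passed the test, and in 52.1% of all genes tested. The 0 hr libraries were named for sequencing lane 2, 48 hr replicates 1 and 2 for lane 1, and 48 hr replicate 3 for lane 3. Lane and time thus cannot be told apart within the 7 libraries. Nor can lane be told apart from anything else that sets replicate 3 off from replicates 1 and 2. A lane term could be fitted only over the 25 libraries. There lanes 2 and 1 shared a group only in control 48 hr, with replicates 1 and 2 in lane 2 and replicate 3 in lane 1. Lanes 1 and 3 shared a group only in WNK1-deficient 48 hr, so that the term takes up what sets replicate 3 off. Calls kept or lost with that term rest on these few libraries, and the part of lane itself was not tested. Of the defining markers of the gate, *Thy1* stood at 37313 to 59396 normalized counts at 0 hr and at 33661 to 56155 at 48 hr, and *Cd44* at 49.9 to 85.8 and 60.3 to 353. Marker sums below take in markers under the limit on the mean, and calls only the tested ones. Among all genes tested 14.4% were called higher and 12.5% lower. The summed level of 13 macrophage and monocyte markers was 1083 to 3064 at 0 hr and 671 to 1153 at 48 hr (2 of 12 tested higher, 2 lower). That of 11 dendritic cell markers was 2910 to 6486 and 946 to 1837 (5 of 6 tested lower). Sums of NK and innate lymphocyte markers were 18740 to 30601 and 25230 to 52817 (6 of 12 higher, 1 lower), and those of B cell markers 11097 to 14425 and 10532 to 14565 (0 of 5 higher, 2 lower). Erythroid markers summed to 141 to 6160 and 224 to 551 (0 of 3 called), markers of epithelium, fibroblasts and endothelium to 18236 to 20148 and 18676 to 23506 (2 of 7 higher, 3 lower), and neutrophil markers to 9.8 to 35.2 and 18.5 to 26.4. Among markers not tested, *S100a8* was below the limit on the mean and *Hbb-bs* was not found by its symbol. The part of other cells in the results was not tested, and in sorted bulk samples fewer cells of a type and less RNA per cell cannot be told apart.

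By 48 hr 3747 genes passed the test (26.9%), 2001 of them higher (14.4%) and 1746 lower (12.5%), at an adjusted p of 0.05. These shares of all genes are the ones to set beside each count of a gene list below. At least 2-fold changes made up 941 of the rises and 886 of the falls, and the median log2 change was -0.02 over all genes, 0.94 over those that rose and -1.02 over those that fell. Every 48 hr library lay above every 0 hr library in 17.5% of genes and below in 16.6%. Without 48 hr replicate 3, 2300 genes were higher (16.5%) and 2080 lower (14.9%), and 3526 of the 3747 calls were made in the same direction. Without 48 hr replicate 1 the calls came to 2131, and without 48 hr replicate 2 to 3150. Replicate 3 was singled out from these same values as the nearest to 0 hr, so calls gained without it are no added support. With lane as a covariate 859 of the calls remained (22.9%). Among the genes described below, that term ended the calls of *Lck*, *Rel*, *Itgb7*, *Ikzf2*, *Bcl11b*, *Zbtb7b*, *Notch2*, *Notch3*, *Maml1*, *Nrarp*, *Erg*, *Ier3*, *Socs2*, *Cxcr4*, *S1pr1*, *Klf2*, *Rb1*, *Rbl2*, *E2f6*, *Mycn*, *Rpa2*, *Bcl2*, *Ldhb*, *Wnk1*, *Tap2*, *Isg15*, *Cxcl10*, *Ecm1* and *Ogdhl*. Leaving out 48 hr replicate 1 or 2 ended those of *Lck*, *Hk2*, *Rb1*, *Cdkn1b*, *Notch1*, *Notch3*, *Erg*, *Sqle*, *Oasl2*, *Isg15*, *Cxcl10*, *Ecm1*, *Wnk1*, *Bcl2* and *E2f6*. After scaling to a common upper quartile 42.3% of calls were higher, against 53.4% as deposited.

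*Ccr8* and *Mmp9* rose most. *Ccr8* (ENSMUSG00000042262, chromosome 9, GRCm38), a chemokine receptor of activated T cells, was at 0 in all 4 unstimulated libraries and at 235, 540 and 144 normalized counts at 48 hr. Set against 3 reads per library, that is at least 97.9-fold higher. *Mmp9*, a secreted protease of the matrix, stood at 0, 4.61, 2.82 and 2.45 before and at 1485, 1546 and 193 after injection (log2 change 8.03 ± 0.94, standard error, adjusted p = 3.84e-06). All 3 stimulated libraries were thus far above the others, with replicate 3 the lowest. *Il2rb*, the β chain of the IL-2 receptor, went from between 12.3 and 39.2 to 4727, 8353 and 825 (7.03 ± 0.70, adjusted p = 5.28e-07). *Gem*, a small GTPase induced by mitogens, went from between 11.3 and 24.5 to 4743, 2693 and 1882 (7.17 ± 0.41, adjusted p = 3.38e-10). The sialyltransferase gene *St6gal1*, at 80.2 to 147 before, reached 12997, 13025 and 6150 (6.60 ± 0.34, adjusted p = 7.85e-11). *Cxcr6*, *Chn2*, *Btla*, *Tns4*, *S100a4*, *Gimap4* and *Spry4* complete the 12 largest rises, with log2 changes of 6.25 to 7.32. They include a chemokine receptor (*Cxcr6*), a RAC regulator (*Chn2*), an inhibitory receptor (*Btla*) and an inhibitor of RAS signalling (*Spry4*). Only genes with a mean of 100 or more and groups that did not overlap were ranked.

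Under the same conditions the largest fall was that of *Slc5a9*, a sugar transporter (-6.21), followed by *Ptcra*. *Ptcra* (ENSMUSG00000036858, chromosome 17), the α chain of the pre-TCR, stood at 3902, 4757, 5164 and 4684 at 0 hr and at 18.2, 22.5 and 574 at 48 hr (-6.17 ± 0.96, adjusted p = 7.32e-05). *Rag2*, the partner of the deleted recombinase, went from 918 to 1364 down to 23.6, 10.6 and 145 (-5.05 ± 0.87, adjusted p = 1.98e-04). *H19*, an imprinted noncoding RNA, fell from 14024 to 21723 to 233, 324 and 1077 (-5.36 ± 0.76, adjusted p = 2.75e-05). In all 3 genes replicate 3 of 48 hr kept the highest level of its group. *Spib*, an ETS family factor of early progenitors, was at 830 to 1361 and then 28.3, 13.9 and 185 (-4.72 ± 0.75, adjusted p = 9.74e-05). *Gucy2e*, a guanylate cyclase (-5.55), and *Bst1*, an ectoenzyme of early lymphoid cells (-5.42), fell too, and *Rab44*, *Atoh8*, *Smim5*, *Tdrd5* and *Tshz2* changed by -4.97 to -4.70 on the log2 scale.

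**Figure D1:**
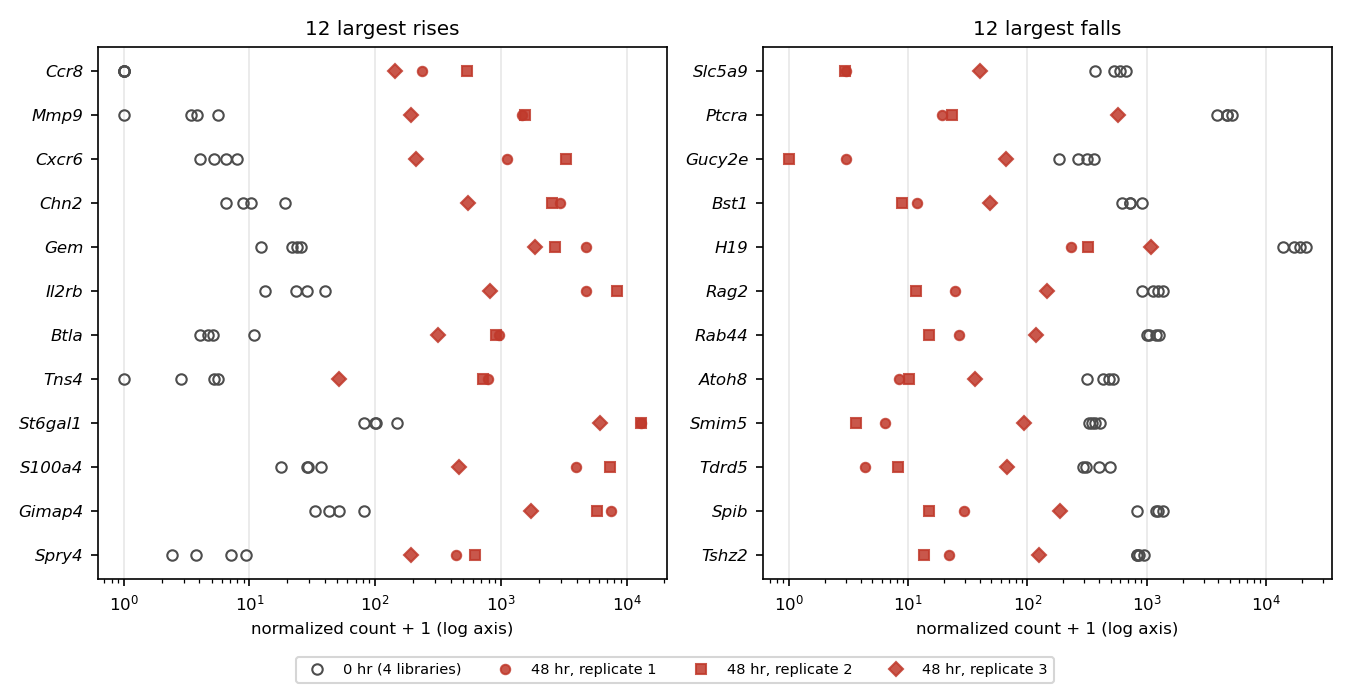
Normalized count plus 1 (horizontal log axis) of the 12 genes with the largest rises and the 12 with the largest falls, one point per WNK1-deficient library (open circles, 4 at 0 hr; filled symbols, replicates 1 to 3 of 48 hr). Replicate 3 of 48 hr (diamonds) lies nearest to the 0 hr circles, at 193 for *Mmp9* and 574 for *Ptcra*. Only genes whose groups did not overlap were ranked.

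Of 17 genes of DN3 and earlier stages 9 fell and 0 rose, and their median log2 change was -1.94, against -0.02 over all genes. Beside *Ptcra*, *Rag2* and *Spib*, the DNA polymerase that adds bases at V(D)J joints, *Dntt*, went from 83294, 82621, 79648 and 75485 to 4519, 3342 and 27660 (-3.42 ± 0.56, adjusted p = 1.15e-04). *Il2ra*, which codes for CD25 and defines DN3 on the cell surface, went from 67361 to 73779 down to 22173, 8068 and 25196 (-2.07 ± 0.41, adjusted p = 7.17e-04). The leukaemia-associated factor gene *Erg* fell less and its groups overlapped (1192 to 1898, then 1229, 211 and 452, -1.59 ± 0.47, adjusted p = 0.0148). With lane as a covariate 5 of the 9 falls remained. Notch signalling sustains cells up to this stage, and 5 of its 13 receptors and targets fell while 2 rose, against 12.5% and 14.4% of all genes. *Notch1* was at 34968 to 56697 and then 22474, 14549 and 31869 (-1.08 ± 0.32, adjusted p = 0.017), *Notch3* changed by -1.94 ± 0.56, and the target genes *Hes1* (-1.97 ± 0.46) and *Nrarp* (-1.36 ± 0.30) fell with them. *Notch2* (0.96) and the coactivator gene *Maml1* (0.70) rose, and *Dtx1*, a regulator of Notch, was at 5090 to 10320 and then 11977, 10106 and 5137 (0.11 ± 0.36).

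Genes listed for the DP stage moved in part. Of the 20 listed 7 rose and 4 fell (median 0.95). Their summed level was already 115197 to 137032 at 0 hr, so that not all of them were off before injection. At 48 hr this sum was lower, at 91202 to 100605. *Cd2*, an adhesion receptor, stood at 335, 196, 125 and 135 and then at 7841, 16247 and 3607 (5.39 ± 0.66, adjusted p = 6.75e-06), and *Cd5*, an inhibitor of TCR signalling, at 47.2 to 209 and then at 4761, 3506 and 1545 (4.93 ± 0.76). The coreceptor genes did not pass the test. *Cd4* was at 42.9, 32.3, 103 and 51.5 before and at 66.1, 253 and 44.3 after injection (0.79 ± 0.88, adjusted p = 0.543), *Cd8a* at 18.4 to 52.6 and then at 66.8, 90.5 and 68.9 (1.12 ± 1.11, adjusted p = 0.49), and *Cd8b1* at 23.9 to 48.4 and then at 22.9, 37.0 and 59.1 (-0.10 ± 1.19, adjusted p = 0.961). The groups overlapped in *Cd4* and *Cd8b1*, and the standard errors of all 3 leave room for changes of several fold. Among the 4 that fell were the surface antigen genes *Ly6d* (-4.20 ± 0.56) and *Cd24a* (-2.11 ± 0.38). Of 8 antigen receptor chains, *Trac*, the constant region of TCRα, rose from 1.38 to 4.29 to 314, 586 and 62.8 (5.89 ± 0.78, adjusted p = 1.39e-05), while *Cd3g* fell from 39249 to 47881 to 12552, 14886 and 18775 (-1.51 ± 0.20) and *Cd3e*, the chain bound by the injected antibody, was at 16933 to 19595 and then 20024, 26472 and 17244 (0.21 ± 0.20, adjusted p = 0.476).

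Of 19 regulators of the T lineage 11 rose and 3 fell (median 0.59). *Gata3* rose from between 3493 and 3993 to 9862, 7799 and 10661 (1.35 ± 0.14, adjusted p = 9.32e-07), *Bcl11b* by 0.75 ± 0.16 and *Ikzf2* by 1.60 ± 0.28. *Zbtb7b*, which sets the CD4 fate in mature cells, rose from 2.77 to 9.86 to 39.1, 119 and 44.3 (3.39 ± 0.58, adjusted p = 2.05e-04), while the repressor genes *Gfi1* (-1.05 ± 0.15) and *Patz1* (-0.89 ± 0.17) fell. *Tcf7*, at 61109 to 72548 and then 78995, 73214 and 88943, changed by 0.30 ± 0.13 (adjusted p = 0.0914). ID proteins hold E proteins off DNA, and both of their genes that were called rose. *Id3* went from 545, 572, 764 and 613 to 2037, 6589 and 3404 (2.53 ± 0.32, adjusted p = 8.94e-06). *Id2* reached 1297 and 3221 in replicates 1 and 2 but only 409 in replicate 3, within the 280 to 437 of 0 hr (1.73 ± 0.41, adjusted p = 0.00363). With lane as a covariate 3 of the 11 rises and 2 of the 3 falls of the lineage regulators remained, and both ID genes.

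Immediate-early genes and their feedback partners, which answer within minutes to hours to antigen receptor signals, were still raised at 48 hr. Of 26 tested 13 were higher and 3 lower (median 0.76), and with lane as a covariate 9 and 1. *Egr3* rose from 0, 1.54, 0 and 4.29 to 130, 361 and 203 (6.80 ± 0.64, adjusted p = 2.48e-07) and *Egr1* from 81.6, 149, 113 and 149 to 2215, 3868 and 4240 (4.78 ± 0.33, adjusted p = 5.18e-09). *Nr4a1*, an orphan nuclear receptor that follows the strength of TCR signals, rose from 76.1, 92.9, 130 and 101 to 664, 1869 and 1754 (3.71 ± 0.33, adjusted p = 1.15e-07). In these 3 genes replicate 3 was not the lowest of the stimulated libraries, and the groups did not overlap. At 3 hr *Nr4a1* had stood at 36058 ± 7997 and *Egr3* at 3556 ± 980 (SD, n = 3). *Cd69*, a surface marker of activation, was at 2569 to 3844 at 0 hr and at 1777, 2541 and 3147 at 48 hr (-0.36 ± 0.30, adjusted p = 0.405). *Jun*, a subunit of AP-1, fell from 1880 to 2385 to 173, 137 and 703 (-3.02 ± 0.46, adjusted p = 6.14e-05), and *Ier3* fell by 1.88 on the log2 scale.

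EGR proteins bind GC-rich DNA, and their letters were sought in the promoters of tested genes, from 250 bases before the start to 50 after it (RefSeq, GRCm38.p6, 9775 genes matched by symbol). GCGNGGGCG on either strand was present in 10.4% of all 9775 promoters, in 15.3% of the 1513 of genes that rose and in 9.23% of the 1268 of genes that fell. The median G+C content of these promoters was 60.7%, 63% and 60%, and its part in the shares was not tested. Among immediate-early genes 6 of 20 promoters held it, and among FOXO, KLF2 and quiescence genes 5 of 17. A pair of them is shown for genes that rose at 48 hr, *Nr4a1* (chr15:101266596-101266895, plus strand) and *Klf2* (chr8:72318812-72319111, plus strand), with the match in capitals.
Nr4a1: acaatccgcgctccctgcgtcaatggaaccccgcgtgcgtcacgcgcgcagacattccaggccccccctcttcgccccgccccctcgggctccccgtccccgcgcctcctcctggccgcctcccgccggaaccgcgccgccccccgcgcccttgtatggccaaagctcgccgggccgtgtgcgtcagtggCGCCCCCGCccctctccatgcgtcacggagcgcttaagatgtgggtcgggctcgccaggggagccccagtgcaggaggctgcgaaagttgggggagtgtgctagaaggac
Klf2: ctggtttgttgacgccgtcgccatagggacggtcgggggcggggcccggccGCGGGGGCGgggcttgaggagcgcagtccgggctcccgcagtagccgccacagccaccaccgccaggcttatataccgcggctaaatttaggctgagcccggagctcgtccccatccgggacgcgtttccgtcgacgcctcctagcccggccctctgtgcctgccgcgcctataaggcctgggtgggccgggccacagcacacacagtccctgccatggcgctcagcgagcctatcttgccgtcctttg

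Transcripts of proteins that carry the receptor signal inward were raised broadly: 21 of 31 genes rose and 2 fell (median 0.73), against 14.4% and 12.5% of all genes. The kinase gene *Zap70* went from 1986, 2743, 3085 and 2738 to 6922, 12584 and 6267 (1.65 ± 0.26, adjusted p = 7.92e-05) and *Rasgrp1*, an activator of RAS, from 5894 to 7389 up to 44148, 32991 and 27215 (2.35 ± 0.20). *Syk*, the relative of ZAP70 used before it, fell from 1409 to 2381 to 539, 386 and 865 (-1.75 ± 0.25, adjusted p = 3.08e-05), and *Lck* changed by -0.63 ± 0.16 (adjusted p = 0.00577). With lane as a covariate 10 of the 21 rises remained. Of 12 NF-κB subunits and inhibitors 3 rose and 4 fell, against 14.4% and 12.5% of all genes. *Rel* rose (1.48 ± 0.23), the inhibitor genes *Nfkbie* (-1.58 ± 0.26) and *Tnfaip3* (-0.96 ± 0.17) fell, and *Relb*, at 1037 to 1250 and then 683, 862 and 1060, did not pass (-0.39 ± 0.23, adjusted p = 0.222).

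Receptors that guide cells to chemokines and to sphingosine 1-phosphate had the largest median change of the lists described here. All 16 that were tested passed, 13 higher and 3 lower, with a median log2 change of 3.25, and with lane as a covariate 9 and 2 remained. *Cxcr6* rose from 3.06 to 6.91 to 1125, 3268 and 209, and *Ccr7*, which leads mature cells to the medulla and to lymph nodes, from 48.4, 39.9, 59.1 and 39.8 to 3040, 3793 and 1343 (5.72 ± 0.54, adjusted p = 2.48e-07). *S1pr1*, the receptor for exit into the blood, rose from 22.1, 9.99, 8.45 and 10.4 to 2074, 1929 and 137 (5.99 ± 1.17, adjusted p = 6.86e-04), lowest in replicate 3, and the call was lost with lane as a covariate. *Ccr9*, which responds to a chemokine of the thymic epithelium, was already high and rose from 5722 to 7735 to 21815, 30351 and 14138 (1.73 ± 0.30). The receptors that fell were *Cxcr4*, which holds DN cells in the outer cortex (9424 to 10577, then 5450, 4005 and 7498, -0.87 ± 0.18, adjusted p = 9.01e-04), *S1pr2* (-1.50 ± 0.20) and *S1pr3* (-3.73 ± 0.51). The median of the list over the 0 hr mean was 4.13 and 4.56 in replicates 1 and 2 and 1.54 in replicate 3.

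**Figure D2:**
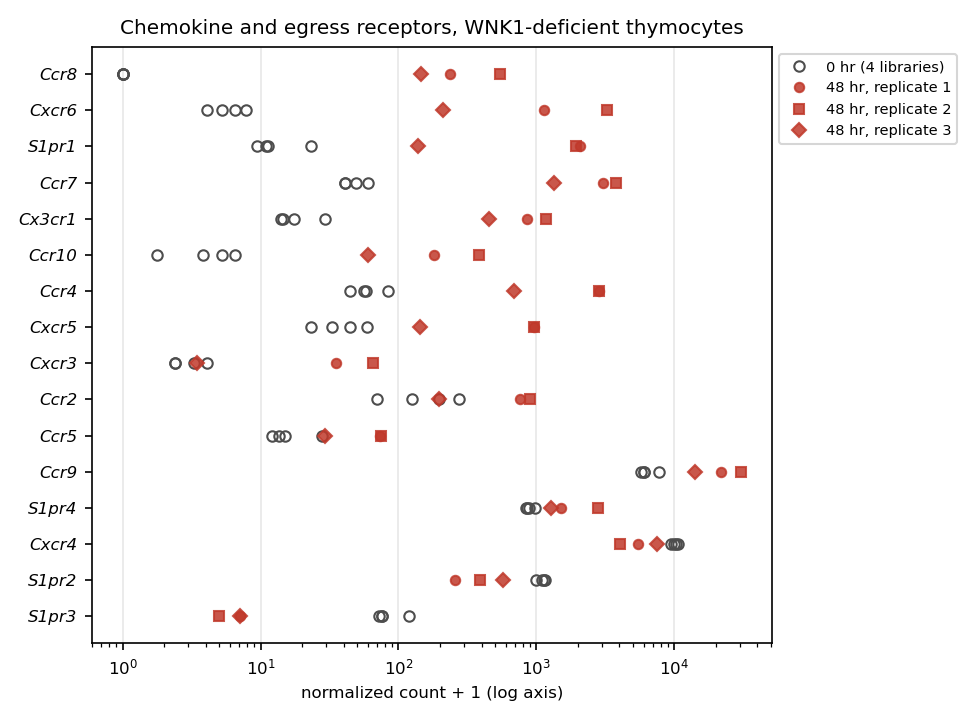
Normalized count plus 1 (horizontal log axis) of the 16 tested receptors for chemokines and sphingosine 1-phosphate, one point per WNK1-deficient library (open circles, 4 at 0 hr; filled symbols, replicates 1 to 3 of 48 hr). From *Ccr8* down to *S1pr4* 13 receptors rose, replicate 3 (diamonds) rose least in each of them, and *Cxcr4*, *S1pr2* and *S1pr3* fell.

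*Klf2*, the transcription factor that drives *S1pr1* in mature T cells, rose from 339, 253, 303 and 302 to 6084, 5826 and 2889 (3.97 ± 0.66, adjusted p = 1.44e-04, not called with lane as a covariate), and *Foxo1* from 838 to 1033 to 4498, 4383 and 2151 (1.95 ± 0.27). They belong to 17 FOXO, KLF2 and quiescence genes, 3 of which rose and 3 fell, among the latter *Tsc22d3* (-2.58 ± 0.41) and *Pik3ip1* (-1.17 ± 0.21). These counts were near the shares over all genes, 14.4% higher and 12.5% lower. Of the 8 GIMAP GTPases, which support lymphocyte survival, 6 rose and 0 fell (median 2.16). *Gimap4* went from 80.2, 42.2, 32.4 and 50.2 to 7509, 5802 and 1750 (6.42 ± 0.50) and *Gimap3* from 5.63 to 23.5 up to 734, 743 and 80.0 (4.99 ± 0.89). All 6 calls remained with lane as a covariate. Of 29 integrins and adhesion molecules 17 rose and 3 fell (median 0.58), and with lane as a covariate 6 and 1. *Itgb2* and *Itgal*, the chains of LFA-1, rose from 972 to 1994 to 17934, 26353 and 7865 (3.39 ± 0.35, adjusted p = 9.56e-07) and from 9522 to 11797 to 36038, 42495 and 18538 (1.48 ± 0.22). *Itga2* (5.56 ± 0.76) and *Itgb7* (3.53 ± 0.82) rose, and *Itga5* (-1.31 ± 0.21) fell. Of 16 matrix, protease and sialomucin genes 5 rose and 2 fell, against the same 14.4% and 12.5% of all genes. *Podxl*, a sialomucin, ranged from 218 to 668 at 0 hr and stood at 1308, 157 and 209 at 48 hr (-0.03 ± 0.84).

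**Figure D3:**
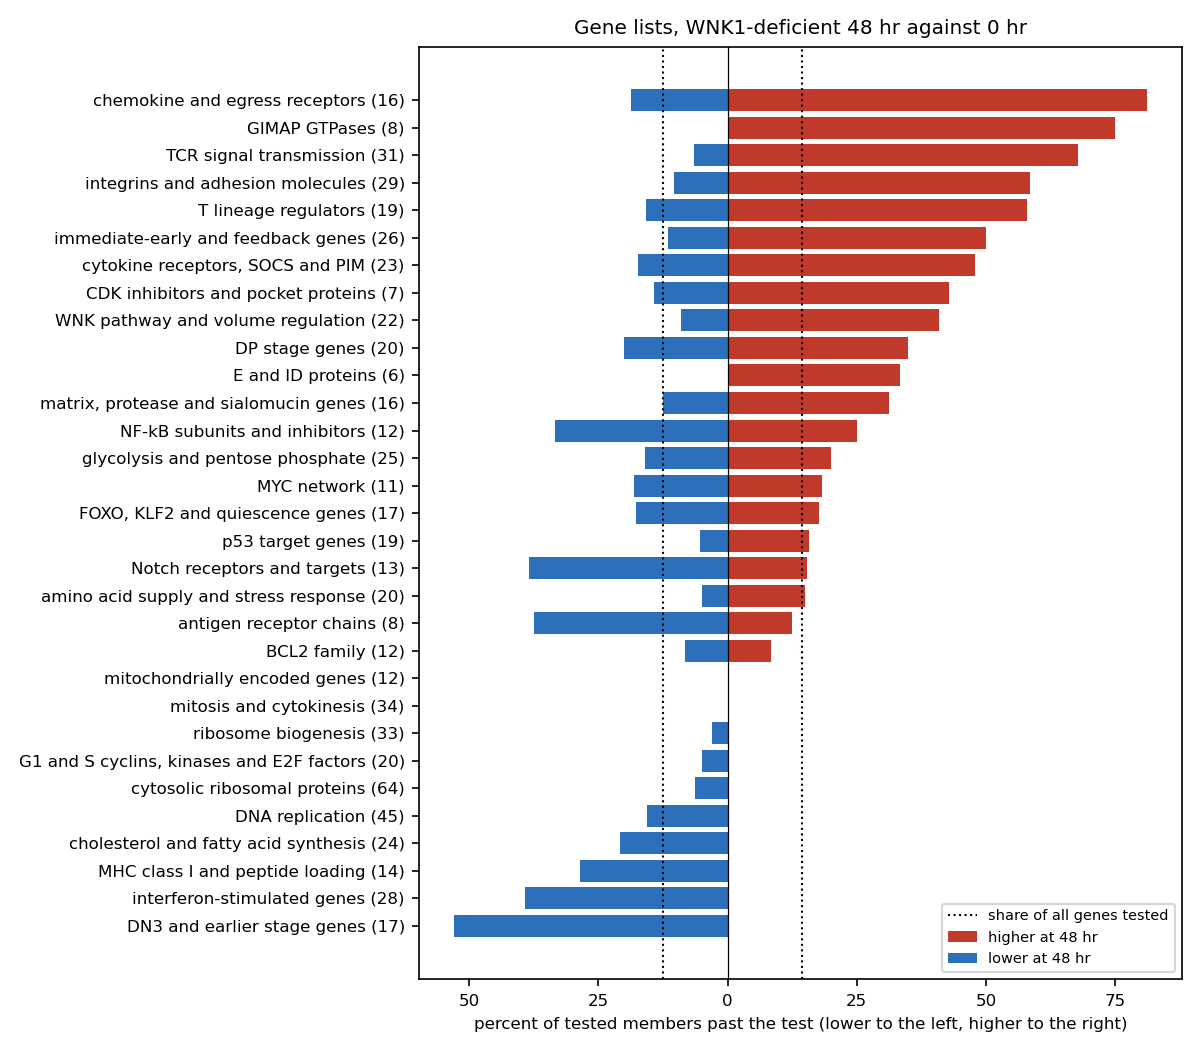
Percent of tested members that passed the test in each list of 6 or more genes (number tested in brackets), higher at 48 hr to the right and lower to the left, in WNK1-deficient thymocytes. Dotted lines mark the shares over all genes, 14.4% and 12.5%, and chemokine and egress receptors (13 of 16 higher) and genes of DN3 and earlier stages (9 of 17 lower) lie at the ends.

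Genes of the cell cycle were at no common level in the 3 stimulated libraries, and few were called. Of 34 genes of mitosis and cytokinesis 0 passed in limma (median -0.21), 0 were at an unadjusted p under 0.05, edgeR and DESeq2 called 0 each, and without replicate 3 limma called 1. *Mki67*, a marker of dividing cells, was at 14207, 14294, 9845 and 16654 at 0 hr and at 22330, 6051 and 26556 at 48 hr (0.18 ± 0.48, adjusted p = 0.812). *Cdk1* was at 2130 to 2464 and then at 1401, 1062 and 2533 (-0.55 ± 0.36, adjusted p = 0.273). The list's median stood at 0.00 in replicate 1, -1.15 in replicate 2 and 0.50 in replicate 3, so the stimulated libraries lay on both sides of the unstimulated ones. Of 45 DNA replication genes 7 fell and 0 rose (median -0.42), 19 fell without replicate 3, and none remained with lane as a covariate. Over all genes 12.5% fell, and 14.9% without replicate 3, so the 7 falls were near the share of all genes and the 19 without replicate 3 above it. By library the median of these replication genes was -0.46, -0.91 and 0.12 in replicates 1, 2 and 3. *Rpa2*, a subunit of the single-strand binding protein, fell from 3413 to 3725 to 1863, 1901 and 2607 (-0.77 ± 0.19, adjusted p = 0.00515), and *Pcna*, the polymerase clamp, was at 15028 to 18654 and then at 11363, 9786 and 17330 (-0.46 ± 0.24, adjusted p = 0.164). Of 20 cyclins, kinases and E2F factors of G1 and S phase, *E2f6* alone passed (-0.47 ± 0.17), while without replicate 3 there were 1 higher and 4 lower. *Ccnd2* and *Ccnd3*, D-type cyclins used in early thymocytes, were at 0.39 ± 0.21 and -0.12 ± 0.18 and did not pass, and *Ccnd2* passed without replicate 3 (0.69, adjusted p = 0.00965).

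**Figure D4:**
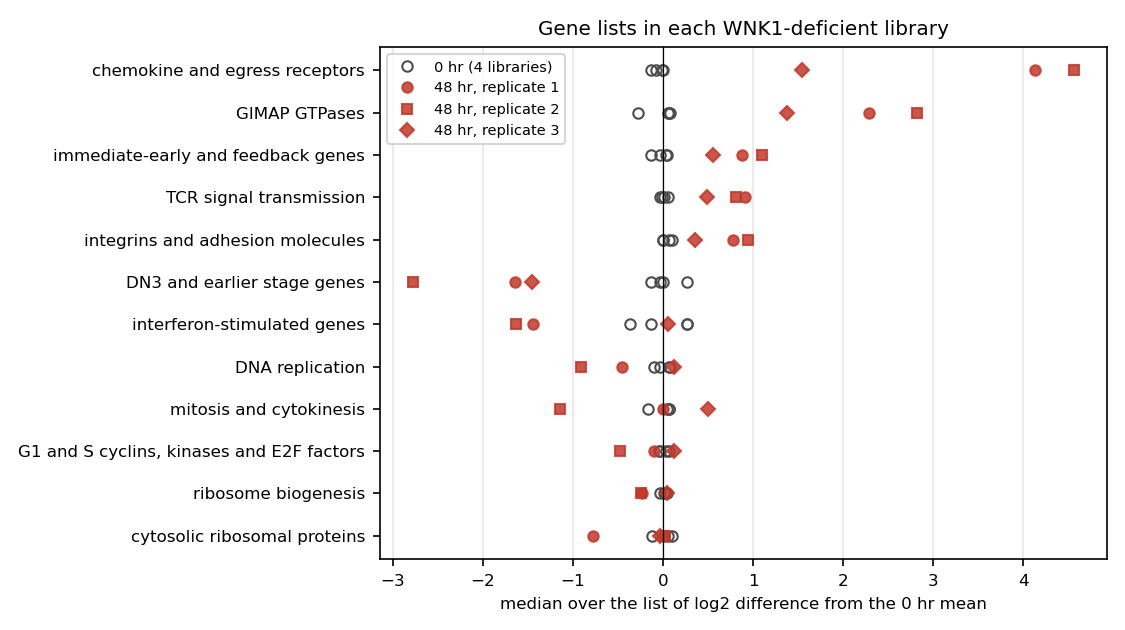
Median over each gene list of the log2 difference from the 0 hr mean (horizontal axis), one point per WNK1-deficient library. In replicate 3 of 48 hr (diamonds) chemokine and egress receptors stood at 1.54, against 4.13 and 4.56 in replicates 1 and 2, interferon-stimulated genes at 0.05 and mitosis genes at 0.50.

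Among inhibitors of the cell cycle *Cdkn1a*, which codes for p21, fell from 1018, 802, 774 and 687 to 71.5, 49.5 and 129 (-3.38 ± 0.37, adjusted p = 1.88e-06), whereas *Cdkn1b*, which codes for p27, rose from 2588 to 3162 to 4229, 3737 and 3696 (0.45 ± 0.15, adjusted p = 0.0265, -0.05 with lane as a covariate). *Rb1* and *Rbl2*, pocket proteins that restrain E2F factors, rose by 1.08 ± 0.28 and 0.90 ± 0.21. *Myc* stood at 10482 to 12927 before and at 5134, 4673 and 10200 after injection (-0.85 ± 0.35, adjusted p = 0.0748), and passed without replicate 3 (-1.20). Its relative *Mycn* fell by 1.03 on the log2 scale. Of 33 ribosome biogenesis genes 1 fell, and of 64 genes of cytosolic ribosomal proteins 4 fell (12 without replicate 3). The share of all genes that fell was 12.5% (14.9% without replicate 3). Glycolysis genes were called both ways, 5 of 25 higher and 4 lower, near the 14.4% and 12.5% of all genes. Among them *Eno1* rose (1.5 ± 0.26), *Hk2* rose (0.85 ± 0.28) and the lactate dehydrogenase gene *Ldhb* fell (-1.69 ± 0.25). Of 24 genes of cholesterol and fatty acid synthesis 5 fell and 0 rose, and none of these calls remained with lane as a covariate. *Sqle*, a squalene oxidase, fell from 1442 to 2090 to 1147, 411 and 1099 (-1.06 ± 0.32, adjusted p = 0.0171), and was at 0.28 with lane as a covariate. Amino acid supply genes (3 of 20 higher, 1 lower), the BCL2 family (1 of 12 higher, 1 lower), p53 targets (3 of 19 higher, 1 lower) and the MYC network (2 of 11 higher, 2 lower) moved both ways, against 14.4% of all genes higher and 12.5% lower. Of 12 mitochondrially encoded genes 0 passed in limma, 1 was at an unadjusted p under 0.05, edgeR and DESeq2 called 0, and 1 was lower without replicate 3. *Bcl2*, which protects cells from apoptosis, rose from 5459 to 7507 to 21431, 10077 and 8751 (0.92 ± 0.26, adjusted p = 0.0111).

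Interferon-stimulated genes were lower in replicates 1 and 2 and near the unstimulated level in replicate 3. Of 28 tested 11 fell and 0 rose (median -1.19), 16 fell without replicate 3, and with lane as a covariate 10 fell. Their median over the 0 hr mean was -1.44, -1.63 and 0.05 in the 3 libraries. *Ifi44* was at 1268, 681, 284 and 849 and then at 38.4, 12.6 and 507 (-3.39 ± 0.78, adjusted p = 0.00291), *Oasl2* at 1612 to 3166 and then at 272, 156 and 2137 (-2.43 ± 0.61) and the ubiquitin-like modifier gene *Isg15* at 862 to 1568 and then at 198, 297 and 1196 (-1.49 ± 0.49, adjusted p = 0.0275). In each of them replicate 3 lay within the range of the 0 hr libraries. *Ifit3*, a blocker of viral RNA, did not pass with all 7 libraries (215 to 795, then 68.8, 57.5 and 818, -1.62 ± 0.90, adjusted p = 0.192) and passed without replicate 3 (-2.84). Of 14 genes of MHC class I and peptide loading 4 fell and 0 rose, among them *Tap2* (-0.98 ± 0.18), a chain of the peptide transporter, and *B2m* was at 78346 to 97884 and then at 73530, 85641 and 78473 (-0.17 ± 0.17).

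The response element for interferon carries pairs of GAAA, and GAAA, any 2 bases and GAAA again, on either strand, were present in 13 of the 22 promoters of these genes that could be matched (59.1%), in 3.1% of all 9775, in 2.31% of those of genes that rose and in 3.94% of those of genes that fell. The promoters of *Isg15* (chr4:156200769-156201068, minus strand), with 3 matches that overlap, and of the chemokine gene *Cxcl10* (chr5:92348840-92349139, minus strand), with 1, are shown for 2 genes of the list that fell, matches in capitals.
Isg15: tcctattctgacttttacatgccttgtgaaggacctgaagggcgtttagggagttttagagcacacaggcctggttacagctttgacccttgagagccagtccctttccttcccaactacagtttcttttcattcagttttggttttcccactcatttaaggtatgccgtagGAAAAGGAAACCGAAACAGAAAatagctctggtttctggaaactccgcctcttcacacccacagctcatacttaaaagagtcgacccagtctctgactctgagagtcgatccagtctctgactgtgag
Cxcl10: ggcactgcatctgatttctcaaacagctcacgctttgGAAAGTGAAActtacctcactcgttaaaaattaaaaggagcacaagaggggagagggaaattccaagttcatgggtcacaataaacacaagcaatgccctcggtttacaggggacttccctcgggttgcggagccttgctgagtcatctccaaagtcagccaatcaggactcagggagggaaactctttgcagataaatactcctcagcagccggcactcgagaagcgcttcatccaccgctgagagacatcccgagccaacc

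Of 22 genes of the WNK pathway and of cell volume regulation 9 rose and 2 fell (median 0.43), and with lane as a covariate 1 rose. Reads of *Wnk1* itself went from 3967, 3161, 3037 and 3614 to 9046, 5142 and 5145 (0.86 ± 0.22, adjusted p = 0.00602), counted over all exons, so that these reads do not check the deletion. *Stk39* rose from 295, 293, 301 and 351 to 1640, 1876 and 660 (2.03 ± 0.33, adjusted p = 1.20e-04), while *Oxsr1* was at 2495 to 2714 and then at 3401, 2884 and 2881 (0.24 ± 0.10, adjusted p = 0.0835). The cotransporter gene *Slc12a2* was at 434 to 691 and then at 1188, 811 and 876 (0.71 ± 0.29, adjusted p = 0.0747). Of 23 cytokine receptors and SOCS and PIM genes 11 rose and 4 fell (median 0.51). *Il6ra* rose from 8.58 to 19.4 to 167, 365 and 145 (4.03 ± 0.47), *Socs2*, an inhibitor of cytokine signalling, fell by 1.89 on the log2 scale, and *Il7r*, at 3418 to 5204 and then 4964, 5837 and 6132, did not pass (0.43 ± 0.23, adjusted p = 0.179).

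Control thymocytes passed the same test for 5893 genes at 48 hr (42.3%), 2997 higher (21.5%) and 2896 lower (20.8%). Of the WNK1-deficient calls 84.3% were made in the same direction in control thymocytes, and of the control calls 53.6% in WNK1-deficient thymocytes, over libraries that the contrasts do not share. A difference between the genotypes in the change itself passed for 185 genes (1.33%), 59 with the more positive change in WNK1-deficient thymocytes (0.424%) and 126 with the more negative one (0.905%), and with lane as a covariate 21 passed. In 174 of the 185 the change was the smaller in WNK1-deficient thymocytes, and in 39 the directions were opposite. Of the 580 genes called in WNK1-deficient thymocytes alone, 8 passed this test. Of immediate-early and feedback genes 8 of 26 had the lower change without WNK1 and 0 the higher one, of GIMAP genes 1 of 8, of chemokine and egress receptors 0 with a lower and 1 with a higher change, and of genes of DN3 and earlier stages 0 of 17. The immediate-early list began from unlike levels: at 0 hr it summed to 21438 to 23279 without WNK1 and to 9684 to 12367 in control thymocytes. At 48 hr the sums overlapped, at 26442 to 36585 and 27502 to 40417.

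*Nr4a1* led the genes with the more negative change. It rose in control thymocytes from 5.86, 7.39 and 7.40 to 2700, 3698 and 3874 (8.75), above all WNK1-deficient libraries of 48 hr from a base below all of those of 0 hr, and the difference between the changes was -5.04 ± 0.48 (adjusted p = 1.10e-05). *Cd69* rose in control thymocytes from 55.0 to 78.1 to 943, 1114 and 1109, levels below those that WNK1-deficient thymocytes had at both times (difference -4.40 ± 0.44, adjusted p = 1.57e-05). *Bcl3*, an NF-κB cofactor, was at 9.37 to 19 and then 185, 266 and 422 in control thymocytes, and at 375 to 495 and then 353, 301 and 606 without WNK1 (-4.43 ± 0.65). *Inf2*, an actin regulator, rose in control thymocytes alone (-4.27 ± 0.47), *Cxcl10* rose there and fell without WNK1 (-4.74 ± 0.98), and *Ecm1*, a matrix protein gene, began alike and rose less without WNK1 (-3.98 ± 0.87). *Cxcl10* began from unlike levels, 3.52 to 18 in control thymocytes and 347 to 739 without WNK1. At 48 hr its levels overlapped, at 66.2, 117 and 52.1 in control thymocytes and 92.4, 54.2 and 491 without WNK1. On the other side, *Mmp9* stood at 5.61, 10.1 and 11 in control thymocytes at 48 hr, against 1485, 1546 and 193 without WNK1 (6.78 ± 1.38, adjusted p = 0.0165). *Cx3cr1*, the receptor of fractalkine, rose in both, from 33.8 to 45.7 to 185, 249 and 80.1 in control and from 13.1 to 28.2 to 854, 1179 and 452 in WNK1-deficient thymocytes (3.53 ± 0.63, adjusted p = 0.00753). *Cdkn1a* fell further in control thymocytes, from 3493, 4351 and 3518 to 51.6, 84.0 and 31 (2.79 ± 0.55), as did *Ogdhl*, a mitochondrial dehydrogenase (2.78 ± 0.51), while *Adamtsl2* (4.08 ± 0.71) and *Fam131a* (2.47 ± 0.48) fell in control thymocytes and did not pass in WNK1-deficient ones (0.25 ± 0.49 and 0.09 ± 0.33). For the coreceptors the differences were -2.21 ± 1.29 for *Cd4*, -2.67 ± 1.63 for *Cd8a* and -4.45 ± 1.74 for *Cd8b1*, and did not pass (adjusted p = 0.526, 0.551 and 0.258), although control thymocytes raised all 3. *Cd8b1* in control thymocytes was at 0, 5.28 and 20.1 before and at 172, 128 and 50.1 after injection.

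**Figure D5:**
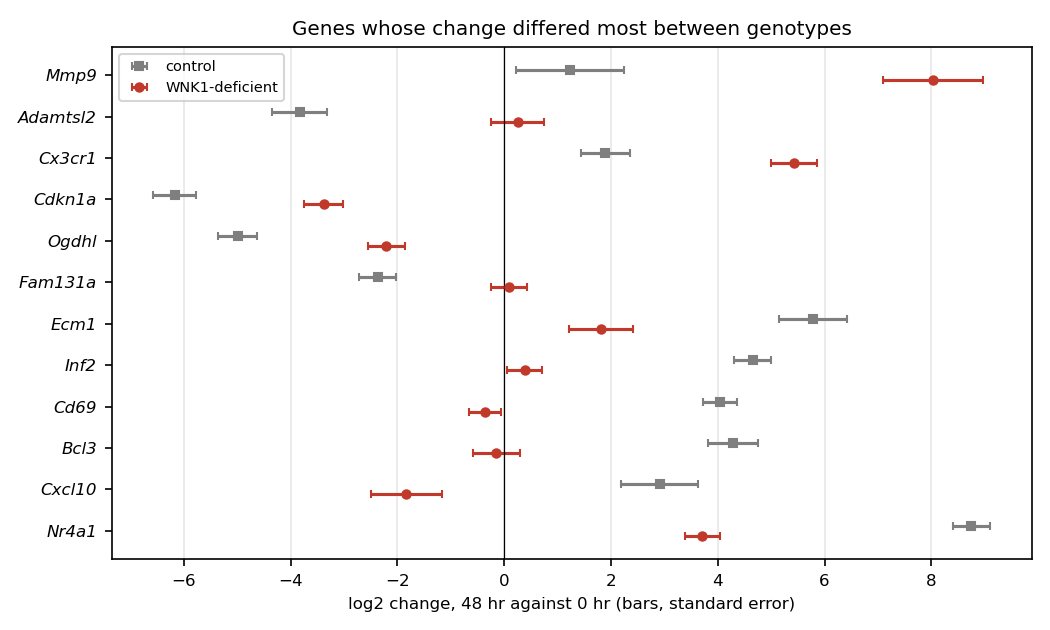
Log2 change from 0 to 48 hr (horizontal axis, bars are the standard error) in control (squares) and WNK1-deficient thymocytes (circles) for the 6 genes with the largest positive and the 6 with the largest negative difference between genotypes. *Mmp9* rose by 8.03 without WNK1 against 1.24 in control, and *Nr4a1* by 3.71 against 8.75.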

How the data were processed

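RNA was sequenced from sorted thymocytes of separate mice in one experiment (polyA-selected, stranded, 75-base single reads). The authors trimmed reads with Trimmomatic 0.36, counted them with STAR 2.5.2a and RSEM 1.2.31 on GRCm38 (Ensembl release 86), and deposited a signal per gene, the count divided by a DESeq2 1.18.1 size factor of the library (R 3.4.1), called the normalized count here. Counts divided by a size factor keep no absolute scale of RNA per cell. Whole reads could be recovered from 100% of values within 0.001 (in 2 libraries a read was worth too nearly 1 to tell), and fed the edgeR and DESeq2 alternatives.

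Genes were tested with limma 3.58.1 (R 4.3.3) on log2(value + 1), with a mean for each of 8 groups over 25 libraries, a trended prior and Benjamini-Hochberg adjustment over 13922 genes at a threshold of 0.05. Fold changes are on this scale, which understates those of low genes, and ± is the standard error unless given as SD. Alternatives were edgeR 4.0.16, DESeq2 1.42.0, other pseudocounts, filters and scalings, a lane term, sample weights, a replicate block and each library left out. The test was checked on simulated data.

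Symbols were found for 12932 of 13922 genes. Named genes were the 12 largest rises and the 12 largest falls (mean of 100 or more, groups apart), preset lead genes, the 2 largest changes each way in each list, and the 6 largest differences each way between genotypes. Members and lists were chosen with earlier results of these data known, and not all genes so named are printed; a few items are not reported here. Intervals of reads were not used, since the spread between mice is larger: the lowest chi-square per degree of freedom between replicates was 35.2 over 9 pairs.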

Additional observations from a re-analysis of the deposited data

Results flagged for a closer look

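Among 125 genes described, 4 had 1 unstimulated WNK1-deficient library apart from the other 3 by Dixon's ratio of the gap to the range. They were *Itgb7* (replicate 2 lowest, ratio 0.859), *Stk39* (replicate 4 highest, 0.84), *Cd8b1* (replicate 4 lowest, 0.897) and *S1pr3* (replicate 1 highest, 0.901). Chance alone sets about 1 in 20 such groups apart.

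The change from 0 to 48 hr differed between genotypes (limma interaction, Benjamini-Hochberg) for 21 genes described. It was more positive in WNK1-deficient thymocytes for *Mmp9* (6.78), *Adamtsl2* (4.08), *Cx3cr1* (3.53), *Cdkn1a* (2.79), *Ogdhl* (2.78), *Fam131a* (2.47) and *Mycn* (1.77). It was more negative for *Nr4a1* (-5.04), *Cxcl10* (-4.74), *Bcl3* (-4.43), *Cd69* (-4.40), *Inf2* (-4.27), *Ecm1* (-3.98), *Il6ra* (-3.52), *Gimap4* (-3.29), *Egr1* (-2.91), *Relb* (-2.60), *Id3* (-1.96), *Foxo1* (-1.70), *Ikzf2* (-1.66) and *Tcf7* (-0.87). The values are differences of log2 changes.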

How the results depend on the processing

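The number of genes past the test in WNK1-deficient thymocytes fell from 3747 to 904 with lane as a covariate (425 higher, 479 lower), and lay between 3058 and 4234 under the other settings that kept all libraries. With 1 library left out it ranged from 2131 (without 48 hr replicate 1) to 4380 (without 48 hr replicate 3), with 1144 to 2300 higher and 987 to 2080 lower. The number of genes past the interaction test, 185, came to 425 with DESeq2, 349 with sample weights, 85 with the replicate block and 21 with lane as a covariate, and to 80 (without control 0 hr replicate 1) to 203 with 1 library left out. It was also below 185 by more than 1.5 times without control 0 hr replicate 2 (84) or 3 (120), control 48 hr replicate 3 (102) and WNK1-deficient 0 hr replicate 2 (105) or 4 (101). The control count stayed within 1.5 times of 5893 under all settings run. The sign of *Cdkn1b* (-0.05) and *Sqle* (0.28) turned with lane as a covariate. Of 99 genes described that passed, 80 kept the call in every setting that tested them except lane, and with lane 68 kept it. The replicate numbers share only a label: deviations of same-numbered libraries of 0 and 48 hr correlated at 0.0681, -0.0418 and -0.116, and the replicate block gave 3058 calls. Time and lane cannot be told apart within the 7 libraries, and the cause of these shifts was not tested.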
